A study of Mus musculus with 2 samples.

Results

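The genes described here are 31 genes of the Fanconi anaemia pathway and of DNA repair by homologous recombination, read in mouse common myeloid progenitors (CMP). They were taken from a fixed list of symbols, and all 31 were found among the 43346 mouse genes of the deposited tables by gene identifier. All 31 are annotated as protein-coding. The series holds total RNA sequencing of 2 libraries, each made from a pool of 100 primary CMP of male C57BL/6J mice aged 5 to 6 weeks, with RNA longer than 200 nucleotides kept and spike-ins added. CMP are bone marrow cells that give rise to granulocytes, monocytes, red cells and megakaryocytes. Both libraries are untreated and belong to 1 group. No contrast between conditions exists, and so genes are compared here within CMP, and then the libraries with each other. The libraries have separate biosamples and the same donor identifier, so the limma p-values below measure only the spread between these libraries, part of which may be technical.

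The Fanconi anaemia pathway repairs DNA crosslinks that block replication forks. A core complex of FANC proteins attaches ubiquitin to the FANCD2 and FANCI proteins, nucleases then cut around the crosslink, and the BRCA proteins and their partners rebuild the broken strand by homologous recombination. The ATM and ATR kinases and their targets signal the damage to the cell cycle. In people, inherited loss of many of these genes causes bone marrow failure and a high risk of leukaemia, which ties the pathway to blood stem and progenitor cells.

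Replicate 1 held 28916263 expected counts and replicate 2 held 26426710, of which the 31 repair genes took 0.0893% and 0.0843%. An expected count is an estimated number of reads per gene, and TPM (transcripts per 1000000) divides it by transcript length and by the library's depth, so that genes can be set against each other. A count of 0 allows up to 0.104 and 0.114 CPM (counts per 1000000), the level of 3 counts, and this floor covers counting error only. Of the genes that define the CMP gate, Kit stood at 98.14 and 92.95 TPM and Cd34 at 74.54 and 55.40, Fcgr2b at 2.48 and 9.59 and Fcgr3 at 0.64 and 4.27, and Ly6a and Il7r, whose products mark excluded cells, had 0 counts in both libraries. Of 8 genes whose products serve to deplete mature cells 3 reached 1 TPM in both libraries. These were Ptprc (52.50 and 51.29), Ly6c2 (29.25 and 15.16) and Itgam (2.97 and 1.19). The TPM of a gene covers all its transcripts, so that of Ptprc does not mark mature cells alone. Markers of other cell types that reached 1 TPM in both libraries numbered 4 of 4 for granulocyte-monocyte progenitors, led by Mpo at 385.91 and 386.11 TPM. For megakaryocytes they numbered 3 of 3, with Pf4 at 52.01 and 94.98. They numbered 3 of 5 for erythroid cells, 2 of 4 for lymphoid cells, 2 of 4 for mature neutrophils and 2 of 3 for stem cells, and their part in the repair genes' levels was not tested. In such pools, fewer cells with a transcript and less of it per cell cannot be told apart.

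Transcripts of nearly the whole pathway were measured in CMP. At 1 TPM or more in both libraries, 30 of the 31 genes were detected, against 44.9% of the 21461 nuclear protein-coding genes. The exception was Rad51c, with 1.63 TPM in replicate 1 and 0.39 in replicate 2 (97 and 30 counts). The median repair gene stood at 13.5 TPM in replicate 1 and 10.6 in replicate 2 (12.1 ± 2.03, SD, n = 2). The median over all nuclear protein-coding genes was 0.32 and 0.56 TPM, and over the 9627 that were detected in both libraries it was 13.2 and 13.5 TPM. As a group, the repair genes thus lay near the middle of the detected genes, between 1.63 and 34.0 TPM in replicate 1 and between 0.39 and 46.4 in replicate 2.

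**Figure D1:**
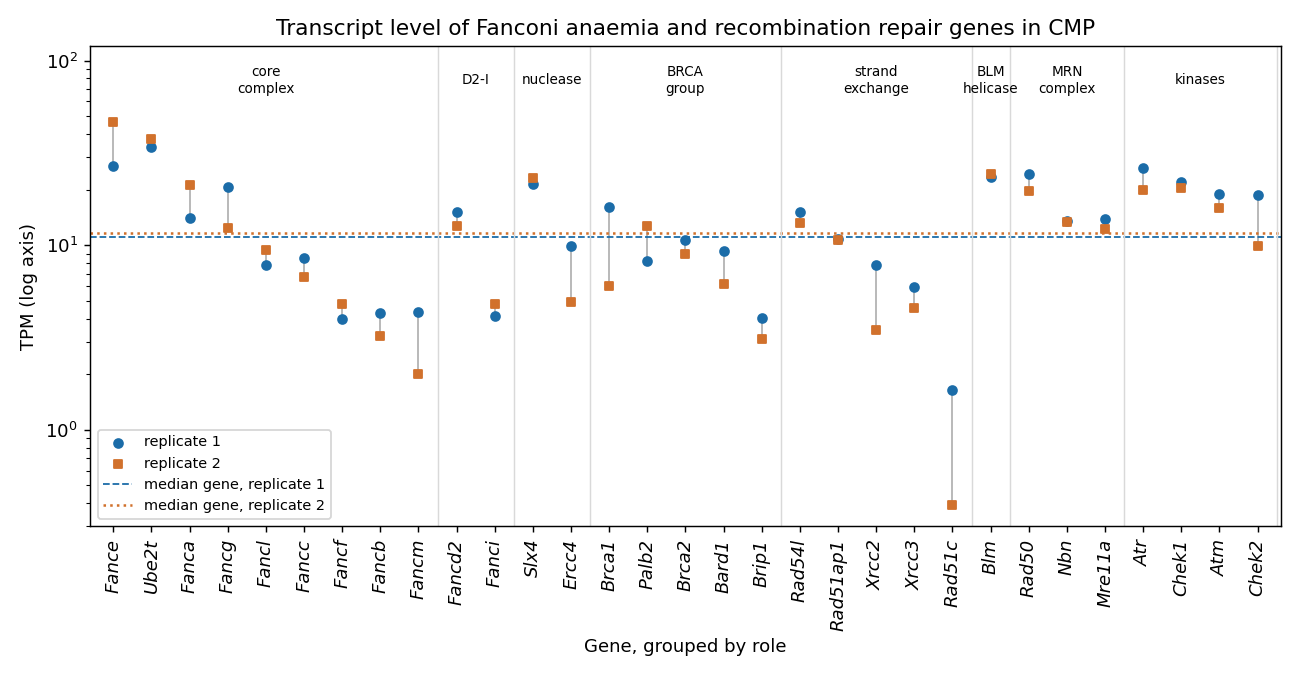
TPM on a log axis for each of the 31 repair genes, grouped by role, as a circle for replicate 1 and a square for replicate 2 joined by a grey line. Dashed and dotted lines mark the median tested gene (11.02 and 11.57 TPM). The kinases, the MRN complex and Blm sit near or above the lines, and Rad51c lies lowest in both libraries.

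To place each gene, its log2(TPM + 1) was set against that of the median gene in the same library and tested with limma over 10757 genes at 1 TPM or more in a library, with Benjamini-Hochberg adjustment. Of the 31 repair genes, 7 were above the median gene, against 34.6% of all tested genes, and 8 were below it, against 30.8%. The 7 above were Ube2t, Fance, Blm, Atr, Slx4, Rad50 and Chek1. The 8 below were Rad51c, Fancm, Brip1, Fancb, Fancf, Fanci, Xrcc2 and Xrcc3. For the other 16 the difference missed the threshold. Without the filter on low values 4 of the 8 were called below (Rad51c, Fancm, Brip1 and Fancb), and with a pseudocount of 0.1 the adjusted p of Rad51c was 0.0552. On the untested scale, 14 genes lay above the median gene in both libraries, 14 lay below it in both, and 3 (Brca1, Palb2 and Chek2) were on different sides in the 2 libraries.

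Several of these genes take much of their TPM from short transcripts annotated as non-coding, as described further below. That term here covers every annotated type other than protein-coding, nonsense-mediated decay transcripts included. The levels were therefore also computed without such transcripts. Then 27 of 31 genes reached 1 TPM in both libraries, and Ercc4, Palb2, Rad51c and Xrcc3 did not. The repair genes' median was 7.96 and 6.14 TPM, beside 9.71 and 10.2 for the genes detected in both libraries. Of the repair genes 4 were above the median gene on that basis (Ube2t, Blm, Slx4 and Rad50), against 32.8% of 10397 tested genes. Another 6 were below it (Fancb, Fancm, Fanci, Brip1, Ercc4 and Palb2), against 26.0%. Fance, Atr and Chek1 thereby lost the call of being above. Of the 31 genes, Blm, Rad50 and Slx4 were called above, and Fancb below, under every setting tested. None of these settings left out short coding transcripts, which held much of the TPM of Slx4.

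**Figure D2:**
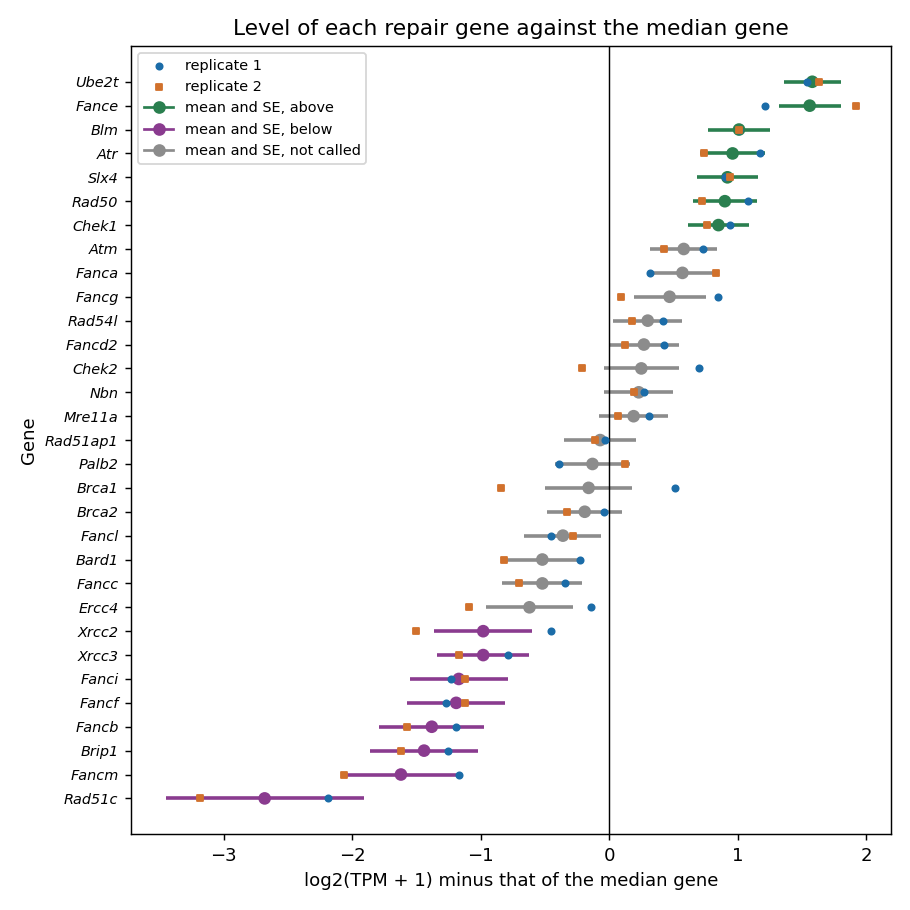
Difference of log2(TPM + 1) between each repair gene and the median gene, as the mean with its standard error (large circle and bar, coloured by the limma call) and the value in each library (small circle and square). Calls above run from Chek1 at 0.85 to Ube2t at 1.58, and calls below from Xrcc2 and Xrcc3 at -0.98 to Rad51c at -2.68.

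Within the core complex, levels spread widely, with Ube2t and Fance at the top and Fancb, Fancf and Fancm at the bottom. Ube2t (chr1:134962565-134974162), the ubiquitin-conjugating enzyme of the complex, stood at 34.05 TPM in replicate 1 and 37.78 in replicate 2. This was 1.58 log2 units above the median gene (SE 0.22, limma adjusted p = 2.35e-05), and the libraries were close to each other. A transcript of 437 bases, Ube2t-204, took 61.97% and 74.67% of its TPM, and without length correction the difference was -0.18 (adjusted p = 0.579). Fancl (chr11:26386135-26471876), the ubiquitin ligase that works with UBE2T, had 7.80 and 9.36 TPM, so that both Ube2t values lay above both Fancl values. Fance (chr17:28313519-28326572), which brings FANCD2 to the complex, had 26.76 and 46.42 TPM and a difference of 1.56 (SE 0.24, adjusted p = 6.34e-05). Without transcripts annotated as non-coding, Fance kept 8.99 and 5.56 TPM, and its difference was -0.30 with an adjusted p of 0.411.

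Fanca (chr8:123268300-123318576) and Fancg (chr4:43002343-43010506), whose products form a subcomplex, crossed over between the libraries. Fanca had 13.99 and 21.27 TPM, and Fancg had 20.63 and 12.42. Neither differed from the median gene by the limma test (adjusted p = 0.0674 and 0.145). Fancc (chr13:63285043-63497278), the partner of FANCE and FANCF, lay lower, at 8.48 and 6.75 TPM.

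The lowest core genes were Fancf, Fancb and Fancm. Fancf (chr7:51860577-51862267), an adaptor of the complex, had 4.0 and 4.79 TPM. Fancb (chrX:164980592-164997272), which holds FANCL in the complex, had 4.28 and 3.23 TPM, a difference of -1.38 from the median gene (SE 0.41, adjusted p = 0.0102). Fancm (chr12:65075603-65132058), the translocase that anchors the complex on DNA, had 4.33 and 2.01 TPM, a difference of -1.62 (SE 0.47, adjusted p = 0.00907). All values of these 3 genes were lower than every value of Fance, Ube2t, Fanca and Fancg. Without transcripts annotated as non-coding that held for Fance and Ube2t alone. Fanca then had 8.4 and 3.09 TPM and Fancg had 2.25 and 6.02, which overlapped the values of the 3 genes.

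The paired substrates of the core complex were unequal. Fancd2 (chr6:113531682-113597017) had 15.14 and 12.62 TPM and Fanci (chr7:79391929-79450264) had 4.12 and 4.79, without overlap between the genes. The log2 ratio of Fancd2 to Fanci was 1.45, with a 95% interval from 0.45 to 2.44. That ratio was 0.52 without transcripts annotated as non-coding, with an interval that held 0. Exons of Fanci share 921 bases with Polg on the other strand (21.9 and 25.13 TPM), and the sources used here do not say whether reads were counted by strand. The same holds for Rad54l with Lrrc41 (15.4% of its exon bases), Fancf with Gas2 (15.0%), Fancl with Vrk2 (13.7%) and Fanca with Zfp276 (10.5%).

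Of the nuclease genes, Slx4 (chr16:3979105-4003770), the scaffold on which crosslink nucleases gather, had 21.41 and 23.12 TPM. It lay 0.92 above the median gene (SE 0.24, adjusted p = 0.0065). The short coding transcripts Slx4-206 (865 bases) and Slx4-208 (715 bases) took 40.01% and 17.15% of its TPM in replicate 1. In replicate 2 they took 27.74% and 32.1%. The longest transcript, Slx4-201 (5706 bases), had 2.14 and 4.22 TPM. Without length correction Slx4 lay 0.89 above the median gene (limma adjusted p = 8.73e-05). Ercc4 (chr16:13109684-13150617), the catalytic subunit of the ERCC1-XPF nuclease, had 9.90 and 4.90 TPM. The ratio of Slx4 to Ercc4 was 1.54 on the log2 scale (95% interval 0.64 to 2.43), and it was 3.01 without transcripts annotated as non-coding. On that basis Ercc4 had only 0.24 TPM in replicate 1 and 2.65 in replicate 2, the opposite order between the libraries. Ercc1, the partner of Ercc4, had 10.47 and 5.62 TPM, with a ratio to Ercc4 of 0.12 and an interval from -0.89 to 1.13.

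In the BRCA group no gene was called above the median gene, and Brca1 differed most between the libraries. Brca1 (chr11:101488764-101551955), a ubiquitin ligase that opens the way for recombination at breaks, had 16.13 TPM in replicate 1 and 6.04 in replicate 2. Bard1 (chr1:71027498-71103146), its obligate partner, had 9.25 and 6.14 TPM. Both genes were higher in replicate 1, and their log2 ratio of 0.36 had an interval from -0.63 to 1.35. Brca2 (chr5:150522630-150570329), which acts on single-stranded DNA at breaks, had 10.67 and 8.98 TPM. Palb2 (chr7:122107262-122132985), the bridge between BRCA1 and BRCA2, had 8.20 and 12.66 TPM. It was the only gene of the group with a higher TPM in replicate 2. Its counts, scaled between the libraries, were 418 and 419. Without transcripts annotated as non-coding, Palb2 had 4.13 TPM in replicate 1 and 0.68 in replicate 2. Brip1 (chr11:86058138-86201193), a helicase that binds BRCA1, was the lowest of the group in both libraries, at 4.05 and 3.08 TPM. Its difference from the median gene was -1.44 (SE 0.42, adjusted p = 0.00975).

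Among the genes of the strand exchange step, Rad51c, Xrcc2 and Xrcc3 were low. Rad51c (chr11:87376645-87404954), with 1.63 and 0.39 TPM, differed from the median gene by -2.68 (SE 0.77, adjusted p = 0.00872). Xrcc2 (chr5:25689812-25705825) had 7.78 and 3.45 TPM, and Xrcc3 (chr12:111803192-111813873) had 5.96 and 4.59. Their differences from the median gene were both -0.98 (adjusted p = 0.0351 and 0.0265). Without the filter on low values the adjusted p was 0.182 for Xrcc2 and 0.14 for Xrcc3. Without transcripts annotated as non-coding it was 0.11 for Xrcc2, while Xrcc3 had a point estimate of 0 TPM. The products of these 3 genes act together in homologous recombination. Rad54l (chr4:116094264-116123690), a translocase that helps the broken strand invade its partner, had 15.11 and 13.23 TPM. Rad51ap1 (chr6:126923050-126939587), which assists the same step, had 10.79 and 10.63 TPM. Every value of Rad54l and Rad51ap1 lay above every value of those 3 genes. Without transcripts annotated as non-coding this did not hold. Rad54l (5.49 TPM) and Rad51ap1 (7.18) in replicate 2 were then under Xrcc2 in replicate 1 (7.47). The ratio of Rad51c to Xrcc3 was -1.71, with an interval from -3.52 to 0.11.

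Of Blm, the MRN genes and the kinase genes, Blm, Rad50, Atr and Chek1 were called above the median gene. Blm (chr7:80454733-80535119), the helicase lost in Bloom syndrome, had 23.28 and 24.31 TPM and lay 1.01 above the median gene (SE 0.24, adjusted p = 0.00292). The ratio of Blm to Brip1, another helicase of the pathway, was 2.45 (95% interval 1.41 to 3.49). Rad50 (chr11:53649519-53707319), the ATPase that tethers broken ends, had 24.41 and 19.64 TPM, a difference of 0.90 (SE 0.25, adjusted p = 0.00793). Its partners in the MRN complex were lower. Mre11a (chr9:14784654-14837123), the nuclease, had 13.89 and 12.22 TPM, and Nbn (chr4:15957925-15992589), which recruits ATM, had 13.50 and 13.36. Both Rad50 values lay above all values of Mre11a and Nbn, although the intervals of the ratios to Rad50 held 0 (-1.49 to 0.08 for Mre11a and -1.44 to 0.11 for Nbn).

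Atr (chr9:95857597-95951781), the kinase that answers stalled forks, had 26.05 and 20.00 TPM, a difference of 0.96 from the median gene (SE 0.25, adjusted p = 0.00577). Atm (chr9:53439149-53536740), which answers double-strand breaks, had 18.95 and 15.94 TPM and missed the threshold (0.58, adjusted p = 0.0585). The ratio of Atm to Atr was -0.37, with an interval from -1.13 to 0.39. Chek1 (chr9:36708482-36727065), the kinase downstream of ATR, had 22.05 and 20.31 TPM and lay 0.85 above the median gene (SE 0.24, adjusted p = 0.00881). Chek2 (chr5:110839979-110874145), downstream of ATM, had 18.57 and 9.85 TPM, the widest gap between the libraries among the kinases. Without transcripts annotated as non-coding, Atr stood at 10.53 and 10.90 TPM, Atm at 7.96 and 7.11, and Chek1 at 6.75 and 6.94. Chek2, which has a single annotated transcript, then held the highest value of the 4 kinases in replicate 1, and Atr in replicate 2. The differences from the median gene were then 0.24 for Atr (adjusted p = 0.421) and -0.34 for Chek1 (adjusted p = 0.313).

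In 24 pairs of partners, genes were set against each other. The 95% interval of the log2 ratio excluded 0 in 8 pairs and held 0 in 16. Each interval adds the variances of both genes as if these were independent, although both genes were read in the same libraries. Besides the pairs given above, the ratio was 1.95 for Ube2t to Fancl (1.15 to 2.74) and 2.08 for Fance to Fancc (1.24 to 2.93). It was -1.66 for Fancf to Fancg (-2.67 to -0.65) and -2.19 for Fancm to Fanca (-3.34 to -1.04). The ratio of Brca1 to Brip1 was 1.27 (0.12 to 2.43). Ratios whose interval held 0 were -1.01 for Fancb to Fancl (-2.11 to 0.08), 0.60 for Chek1 to Chek2 (-0.21 to 1.42), -0.34 for Chek2 to Atm (-1.17 to 0.49) and -0.10 for Chek1 to Atr (-0.85 to 0.64). They were 0.03 for Brca1 to Brca2 (-0.92 to 0.97), -0.05 for Brca2 to Palb2 (-0.94 to 0.83) and 0.10 for Fanca to Fancg (-0.71 to 0.91). For Mre11a to Nbn the ratio was -0.04 (-0.85 to 0.77), for Rad51ap1 to Rad54l -0.37 (-1.20 to 0.46) and for Xrcc2 to Xrcc3 0.00 (-1.11 to 1.12). Without transcripts annotated as non-coding, the intervals for Ube2t to Fancl, Slx4 to Ercc4 and Blm to Brip1 still excluded 0, at 2.16, 3.01 and 2.45. Those for Fance to Fancc, Fancm to Fanca and Brca1 to Brip1 then held 0. The ratio of Fancf to Fancg had the opposite sign on that basis, 0.17.

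The transcript tables split each gene's TPM over its transcripts. For each gene with at least 20 counts in both libraries and several transcripts, the leading transcript is the one with the highest deposited percent of the gene's TPM. The same transcript led in both libraries for 16 of 26 repair genes, against 58.7% of 7607 genes. A transcript that is not protein-coding led in 1 or both libraries for 9 of the 26, against 28.6%. These are retained-intron, processed or nonsense-mediated decay transcripts, in the terms of the annotation. The median share of TPM outside such transcripts was 65.6% and 73.0% among the 26 repair genes, beside 88.2% and 88.4% among all 7607.

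Xrcc3 was the most one-sided case, since a nonsense-mediated decay transcript, Xrcc3-203, took 100% of its TPM in both libraries. That is a point estimate. By the deposited posterior means Xrcc3-203 took 84.38% and 74.15%, and the coding Xrcc3-201 took 2.25% and 8.26%. Fance was led by the processed transcript Fance-214, of 536 bases, with 49.27% and 55.6%. Chek1 was led by different retained-intron transcripts in the 2 libraries, Chek1-206 of 508 bases (25.85% in replicate 1) and Chek1-208 of 758 bases (42.5% in replicate 2). Neither library gave a protein-coding transcript the lead in these 3 genes.

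In the other 6 genes 1 library had a coding lead. For Fanca it was Fanca-201 (4485 bases, 45.24%) in replicate 1 and the retained-intron Fanca-208 (895 bases, 39.44%) in replicate 2. Palb2 likewise moved from Palb2-202 (3750 bases, 50.35%) to the retained-intron Palb2-208 (709 bases, 55.15%). In Fancg the order was opposite, with the retained-intron Fancg-209 (476 bases, 52.03%) in replicate 1 and the coding Fancg-201 (2771 bases, 48.41%) in replicate 2. Ercc4 was led by the nonsense-mediated decay transcript Ercc4-202 (36.57%) in replicate 1 and by the coding Ercc4-201 (54.13%) in replicate 2. Fancd2 was led by the retained-intron Fancd2-204 (764 bases, 47.67%) and then by Fancd2-201 (5512 bases, 42.43%), and Atm by the retained-intron Atm-204 (1243 bases, 57.98%) and then by Atm-201 (10006 bases, 44.57%). A short transcript needs few reads for a high TPM. In replicate 1 Atm-204 held 247.81 expected counts, and the coding Atm-201, behind it in TPM, held 1613.19.

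Some other genes had all their TPM in coding transcripts by the point estimate. Fancb, Blm and Nbn have no transcript annotated as non-coding in these tables, so their share was fixed at 0. Brip1 has such transcripts, and their share was 0 in both libraries. By the deposited posterior means the coding Brip1-201 took 85.81% and 81.66%. Bard1, Brca2, Chek2, Fancf and Fancm have a single transcript each in these tables and were not considered. Slx4 and Fancl had a different coding lead in each library. In Fanci the lead differed too, and the one of replicate 1 has no entry in the annotation used here. That transcript has 4618 bases, and Fanci-201, the lead of replicate 2, has 4619. By the deposited posterior means they took 46.95% and 46.24% in replicate 1, so the lead there was close to a tie.

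**Figure D3:**
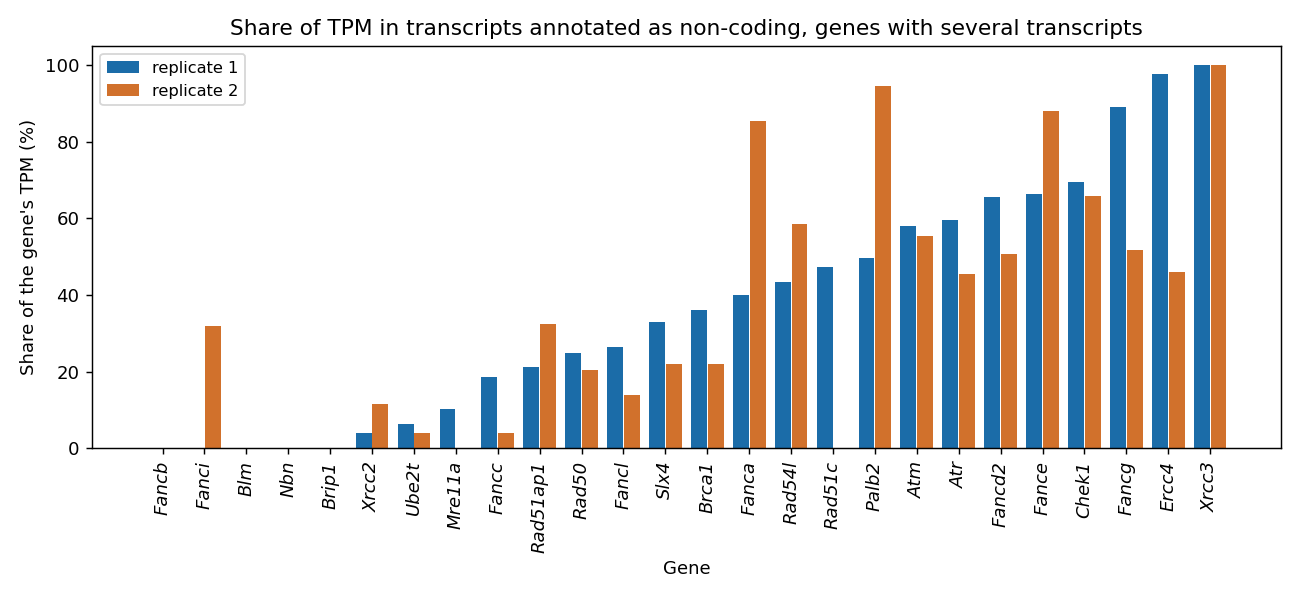
Percent of each gene's TPM in transcripts annotated as non-coding, for the 26 repair genes with several transcripts, in replicate 1 and replicate 2. The share is 0 for Brip1 and for Fancb, Blm and Nbn, which have no such transcript. It is 100% in both libraries for Xrcc3, all in a nonsense-mediated decay transcript. The share is far apart between the libraries for Fanca (40.0% and 85.5%) and Palb2 (49.6% and 94.6%).

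Between the libraries, most repair genes had somewhat more reads in replicate 1. After TMM scaling, counts were higher in replicate 1 for 23 of the 31 genes, against 49.2% of 11656 protein-coding genes that had at least 10 counts in a library. The median log2 ratio of replicate 2 to replicate 1 was -0.25 for the repair genes and 0.00 for all 11656. With total-count scaling both medians moved up, to -0.13 and 0.12, which left a gap of the same size. The median size of the difference was smaller for the repair genes (0.29) than for all genes (0.45). The 11656 genes needed 10 counts in only 1 library, and counting noise is widest at low counts. The lowest repair gene, Rad51c, had 97 and 30 counts. No comparison matched for counts was made, here or below. Since 1 library stands against 1 library, the differences between them have no replicate check.

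In scaled counts, 2 of the 31 genes were 2-fold or more higher in replicate 1, against 10.2% of all genes, and 0 were so in replicate 2, against 14.7%. The 2 were Rad51c, 3.31-fold apart (98.1 and 29.7 scaled counts), and Fancm, 2.21-fold apart (686 and 310). Chek2 (811 and 416, 1.95-fold), Brca1 (1245 and 663, 1.88-fold) and Fancc (492 and 267, 1.84-fold) followed, all higher in replicate 1. In TPM, 5 genes were 2-fold or more apart (Rad51c, Brca1, Xrcc2, Fancm and Ercc4), all higher in replicate 1. The gene with the widest gap in counts the other way was Fance, with 385 and 496 scaled counts (1.29-fold).

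An exact binomial test, which asks only whether 2 libraries differ beyond counting noise, called 21 genes higher in replicate 1, against 37.8% of all genes, and 1 (Fance) higher in replicate 2, against 40.1%. The adjusted p was 8.12e-40 for Brca1, 2.61e-32 for Fancm and 6.81e-29 for Chek2. By edgeR's exact test at the common dispersion (biological coefficient of variation 0.638), 0 of the 31 genes were called, 0 had an unadjusted p under 0.05, and 1 of 11656 genes was called. That dispersion comes from the same 2 libraries, so this test could call almost no gene, and neither test says how these genes vary between CMP samples.

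TPM and counts did not always point the same way, because the effective length, the length open to reads averaged over a gene's transcripts, differed between the libraries. It was 1.2-fold or more apart for 14 of the 31 genes, against 28.3% of 10431 genes. Brca1 had an effective length of 3716 bases in replicate 1 and 5418 in replicate 2, and was 2.67-fold apart in TPM but 1.88-fold in counts. Fanca had 2516 and 1353 bases, with fewer scaled counts in replicate 2 (731 and 583) and a higher TPM there. Fancg had 1017 and 1885 bases and the opposite pattern, with 436 and 474 scaled counts and a lower TPM in replicate 2. In all, 7 genes had opposite directions in counts and TPM, namely Fanca, Fancg, Fancl, Ube2t, Slx4, Rad51ap1 and Mre11a. Across the 31 genes, TPM and effective length had a Spearman correlation of -0.21 in replicate 1 and -0.41 in replicate 2, given as a description, since TPM is computed by dividing by that length.

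**Figure D4:**
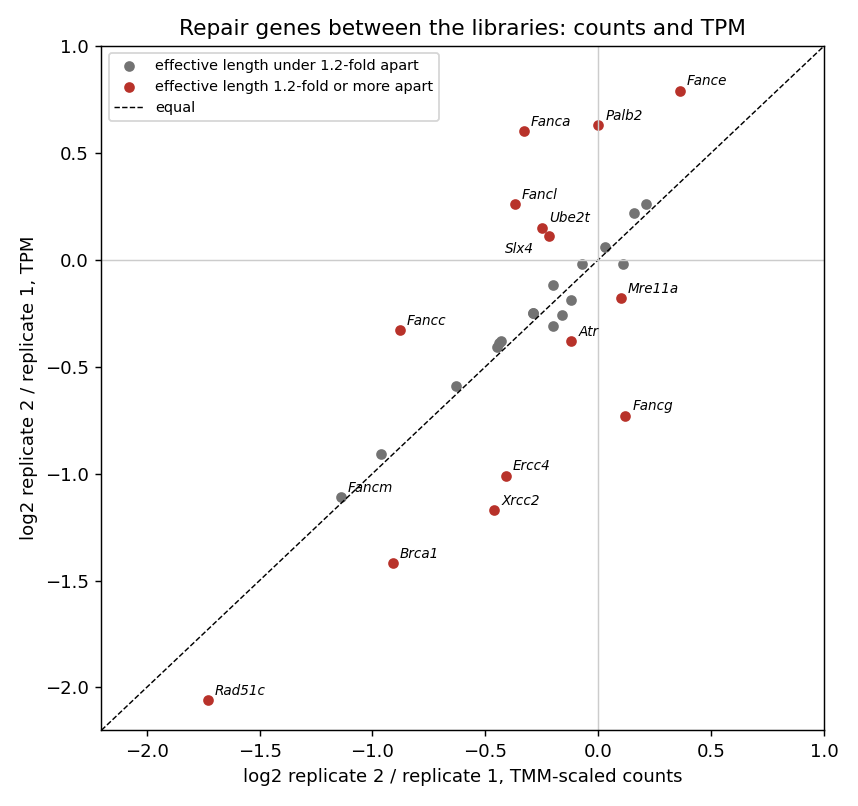
Log2 ratio of replicate 2 to replicate 1 for each repair gene, in TMM-scaled counts (horizontal) and in TPM (vertical), with genes whose effective length was 1.2-fold or more apart in red. Grey points lie close to the dashed line of equal ratios, and Fanca, Fancl, Ube2t, Slx4, Fancg and Mre11a are among those that fall where the signs are opposite.

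The wider repair machinery was read from lists of other genes. Each of 12 other Fanconi pathway genes reached 1 TPM in both libraries, and their median was 11.2 ± 0.849 TPM (SD, n = 2), close to that of the 31 genes. They were led by Cenpx, a partner of FANCM (84.69 and 40.13 TPM), Usp1, which removes ubiquitin from FANCD2 (41.48 and 41.22), and Rfwd3, a ubiquitin ligase acting on RPA (26.66 and 15.62). Detection was complete as well for resection and dissolution (13 of 13, 9.56 ± 2.96), checkpoint (15 of 15, 16.2 ± 0.41), chromatin at double-strand breaks (13 of 13, 22.9 ± 3.57) and aldehyde detoxification (6 of 6, medians of 34.0 and 28.0 in the libraries). The checkpoint list was led by Tipin (84.86 and 81.32 TPM), Topbp1 (103.22 and 59.29) and Rpa3 (70.22 and 30.40). By the limma test, 7 of 15 checkpoint genes and 9 of 13 break chromatin genes were above the median gene and 0 of either were below, against 34.6% and 30.8% of all tested genes. The counts above and below were 4 and 2 of 12 for the other Fanconi genes, 3 and 4 of 13 for resection and dissolution, 2 and 4 of 11 for end joining, 2 and 3 of 10 for lesion bypass, 0 and 2 of the 4 tested meiotic genes, and 4 and 0 of 6 for aldehyde detoxification.

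The aldehyde detoxification list, which includes enzymes that remove formaldehyde and acetaldehyde, aldehydes that can crosslink DNA, had the highest median of these lists. Esd, an esterase of formaldehyde breakdown, had 72.90 and 46.65 TPM. Adh5, the formaldehyde dehydrogenase, had 38.61 and 39.07, and Aldh2, which oxidises acetaldehyde, had 35.15 and 36.91. Aldh9a1 had 32.83 and 19.03, while Aldh1a1 (12.81 and 13.23) and Aldh7a1 (9.77 and 12.40) were not called against the median gene (adjusted p = 0.546 and 0.922). Both Esd values lay above every value of the 31 repair genes. Both Adh5 values lay above those of all repair genes but Fance, and Aldh2 lay above those of all but Fance and Ube2t.

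At the cut of 1 TPM in both libraries, other routes of repair were less complete. End joining had 9 of 11 genes detected (9.92 ± 0.0424 TPM), with Xrcc6 highest (36.85 and 42.15) and Lig4, the ligase of the route, at 1.25 and 0.27. Xrcc4, the partner of LIG4, had 0.73 and 1.24. Crosslink and lesion bypass had 9 of 10 (10.6 ± 0.976), led by Ube2b (29.40 and 29.45). Meiotic recombination had 4 of 12, with a median of 0.167 ± 0.0601 TPM. Of these Psmc3ip (17.14 and 10.37 TPM) and Mnd1 (5.80 and 10.71) were highest, and Dmc1, Sycp1, Sycp3 and Hormad1 had 0 TPM in both libraries. With TPM rescaled over nuclear protein-coding genes, 10 of 11 end joining, 10 of 10 lesion bypass and 5 of 12 meiotic genes passed the same cut.

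Some of these genes lie head to head with another gene. A protein-coding gene on the other strand started within 1000 bases upstream, pointing away, for 10 of the 31 genes, or 32.3%, against 6.76% of all nuclear protein-coding genes. Among the 9627 genes detected in both libraries the share was 11.9%, and no test of the difference was made. The starts were between 30 and 375 bases apart. Gene starts are those of GENCODE M21 on mm10.

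**Figure D5:**
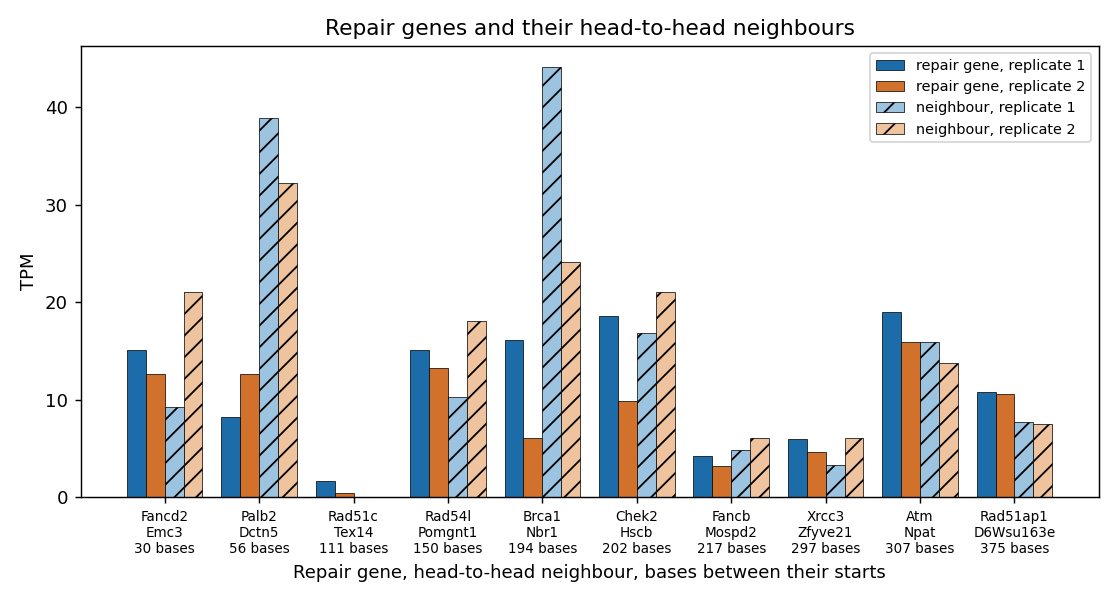
TPM of 10 repair genes (solid bars) and of their head-to-head neighbours (hatched bars) in both libraries, in order of the distance between their starts. Nbr1 and Dctn5 stand well above Brca1 and Palb2, and Tex14 beside Rad51c is at 0.

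Neighbour and repair gene stood at different levels in several pairs. Nbr1, an autophagy receptor 194 bases from Brca1, had 44.05 and 24.12 TPM, above both Brca1 values. Dctn5, a dynactin subunit 56 bases from Palb2, had 38.86 and 32.24 TPM, and Mospd2, 217 bases from Fancb, had 4.82 and 6.06. These 3 neighbours were higher than their repair gene in both libraries. Npat, the histone gene activator 307 bases from Atm, had 15.95 and 13.77 TPM, and D6Wsu163e, 375 bases from Rad51ap1, had 7.70 and 7.52, both lower than their repair gene in both libraries. Tex14, 111 bases from Rad51c, had 0 counts. For Fancd2 and Emc3 (30 bases apart), Rad54l and Pomgnt1 (150), Chek2 and Hscb (202), and Xrcc3 and Zfyve21 (297), the repair gene was higher in replicate 1 and its neighbour in replicate 2. Emc3 had 9.30 and 21.03 TPM, Pomgnt1 10.26 and 18.09, Hscb 16.79 and 21, and Zfyve21 3.34 and 6.08.

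Of these start regions 3 are printed to show how little sequence separates the paired genes. Each holds the bases between the neighbour's start and the start of the repair gene, in the repair gene's direction, read from RefSeq promoter windows of GRCm38.p6. Capitals mark the letters CCAAT or their reverse complement ATTGG, a box bound by the factor NF-Y.
Palb2 to Dctn5, chr7:122132986-122133040, minus strand: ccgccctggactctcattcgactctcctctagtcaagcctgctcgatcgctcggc
Rad54l to Pomgnt1, chr4:116123691-116123839, minus strand: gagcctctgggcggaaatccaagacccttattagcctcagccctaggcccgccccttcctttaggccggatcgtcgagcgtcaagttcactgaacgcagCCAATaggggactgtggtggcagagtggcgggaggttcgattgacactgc
Chek2 to Hscb, chr5:110839778-110839978, plus strand: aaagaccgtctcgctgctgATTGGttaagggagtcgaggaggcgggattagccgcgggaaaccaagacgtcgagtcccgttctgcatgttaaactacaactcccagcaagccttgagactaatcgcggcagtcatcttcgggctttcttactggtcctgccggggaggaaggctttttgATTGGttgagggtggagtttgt
Palb2 and Dctn5 are separated by 55 bases with no CCAAT, Rad54l and Pomgnt1 by 149 bases with 1 match, and Chek2 and Hscb by 201 bases with 2.

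CCAAT was frequent in the pathway as a whole. RefSeq promoter windows, 250 bases before to 50 after the start, were found for 27 of the 31 genes and not for Fancd2, Nbn, Rad50 and Xrcc2. CCAAT on either strand was present in 19 of 27 genes (70.4%), against 37.4% of all 32851 windows. By gene, it was present for 43.6% of the 7765 detected genes with a window. The NRF1 motif GCATGCGC was present in 3 genes (11.1%, against 2.71% of windows), and the ETS core CCGGAAG in 6 (22.2%, against 8.86%). Detected genes held them in 6.83% and 23.5%. The cell cycle element CHR (TTTGAA or TTCGAA) was present in 2 genes, or 7.41%, against 19.2% of windows and 16.7% of detected genes. The windows of the repair genes had a median GC content of 58.0%, beside 52.7% for all windows.

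Letters of the E2F motif, known from promoters of genes used in S phase, were present in 9 of 27 genes (33.3%), against 8.94% of detected genes and 4.46% of all 27025 genes with a window. The longer form (TTTGGCGC, TTTCCCGC, TTTCGCGC or TTTGCCGC) was found in 5 genes (18.5%, against 2.26% of windows) and the shorter form (TTCCCGCC) in 5 (18.5%, against 2.19%), Rad51c having both. Of detected genes with a window, 5.29% held the longer form and 5.15% the shorter. The forms overlap in sequence, so 1 site can hold both. Within the 250 bases before the start alone the shorter form was found in 2 genes. The genes were Bard1, Brca2, Chek1, Chek2, Fancb, Fancg, Fancm, Rad51ap1 and Rad51c. The 6 matches that lie wholly before the RefSeq start are printed in the direction of the gene, with the match in capitals. Each has 11 bases on each side. The Fancg match lies inside the GENCODE span of that gene, which reaches 43010506 on the minus strand. It is thus before the RefSeq start only.
Bard1, chr1:71103163-71103192, minus strand: ccgccgctcagTTTCCCGCtcaggaagttt
Brca2, chr5:150522442-150522471, plus strand: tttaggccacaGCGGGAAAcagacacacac
Chek2, chr5:110839820-110839849, plus strand: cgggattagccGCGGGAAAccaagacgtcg
Fancb, chrX:164980408-164980437, plus strand: tccggggtagaGGCGGGAAtaagtgctctg
Fancg, chr4:43010335-43010364, minus strand: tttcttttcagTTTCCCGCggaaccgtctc
Fancm, chr12:65075538-65075567, plus strand: aaccaatcatcTTCCCGCCgcaaaatcggc
A match is a description of letters and no evidence of a bound site. The 9 genes had no common level, since Chek1 was above the median gene, Fancb, Fancm and Rad51c were below it, and the other 5 were not called.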

How the data were processed

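Total RNA of 2 pools of CMP was sequenced. The authors deposited, per library, a gene and a transcript table on mm10 with GENCODE M4, per the deposited notes. Aligner, quantifier and strand of counting were not given in the sources used here. In these tables the deposited expected counts divide reads shared between genes, so they need not be whole. They were whole, within 1e-06, for 61 of the 62 values of the 31 genes. The deposited TPM are per 1000000 over all table entries, and the deposited percent is a transcript's share of its gene's TPM.

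Identifiers were matched to GENCODE M21 (GRCm38). Levels were tested with limma 3.58.1 on log2(TPM + 1), two-sided, against the median gene, with a variance trend. Intervals of pair ratios use its moderated variances, added as if the genes of a pair were independent. Counts were rounded and scaled by TMM (edgeR 4.0.16) for the exact binomial test, with a threshold of 0.05 on adjusted p. Depth was 28916263 and 26426710 counts. The tests were checked on simulated data. Alternatives were other TPM thresholds, pseudocounts, filters, scalings (DESeq2 1.42.0), posterior means and replicates left out.

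The genes, lists, pairs and tests were chosen with earlier results of these data known. A few planned pairs and 1 list are not reported here. All 31 genes are named, with the 3 highest genes of some lists and all head-to-head neighbours. Lig4, Xrcc4, Xrcc6, Ube2b, Aldh9a1, Aldh1a1, Aldh7a1 and the marker genes given by value were singled out after their values were seen. The levels without transcripts annotated as non-coding, the 1.2-fold limit on effective length, the joint E2F count and the overlapping heads were added after the data were seen.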

Additional observations from a re-analysis of the deposited data

How the results depend on the processing

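Over 48 results, 249 alternative values were computed, of which 177 used both libraries and 72 left one out. Of the 177, 136 were labelled the same. For pair ratios this meant the same direction and call, and for medians a move within the spread. For counts of genes it meant only a similar number, whichever genes were called, such as 30 detected at 1 TPM and 22 at 5 TPM. The 72 rest on a single library, with no residual degrees of freedom and no test, so they say nothing about stability. The sign of the ratio differed between the libraries in 7 of the 24 pairs. The median level of the repair genes, 12.1 TPM, was 31.4 when TPM was rescaled over nuclear protein-coding genes and 20.5 as CPM without length correction. It was 7.05 without transcripts annotated as non-coding. Of the 7 genes above the median gene, 4 were called without such transcripts, and 11 genes were called in CPM. Those below numbered 8, and 4 without a filter and 5 in CPM. A 3-fold rule left 1 gene apart between the libraries, edgeR's exact test left 0 of the 22 binomial calls, and a minimum of 5 TPM left 2 of the 4 meiotic genes.

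In CPM the log2 ratio had the opposite sign for Brca1 to Brca2 (-1.20), Brca2 to Palb2 (2.27), Ercc1 to Ercc4 (-2.10) and Mre11a to Nbn (0.87). Without transcripts annotated as non-coding it did for Brca1 to Bard1 (-0.09), Brca1 to Brca2 (-0.42), Brca2 to Palb2 (1.88), Chek1 to Chek2 (-0.89), Chek2 to Atm (0.77), Fancf to Fancg (0.17) and Rad51ap1 to Rad54l (0.16). With posterior means it did for Mre11a to Nbn (0.04). Of these pairs, all but Fancf to Fancg had intervals that held 0 as first fitted. In CPM the ratio of Ube2t to Fancl was 0.51. The cause was not tested beyond these alternatives. With overlapping heads included, 12 repair genes had a head-to-head neighbour, beside 10.9% of all genes. No paired analysis was possible because both libraries belong to 1 group. The floor of 3 counts limits what can be said of Dmc1 and Tex14, which may be present below it.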
